A study of Mus musculus with 2 samples.

Results

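Coagulation factor V (F5), tissue factor (F3), tissue factor pathway inhibitor (Tfpi), thrombomodulin (Thbd), the endothelial protein C receptor (Procr), tissue and urokinase plasminogen activators (Plat and Plau), protease nexin 1 (Serpine2) and alpha-2-macroglobulin (A2m) were followed across the cell types of the mouse ciliary body. These 9 genes of the 33456 in the count tables were taken by symbol, and all 9 were found. They had been picked from these same libraries for how their levels differed between cell types, so their levels are given as a description with no test. The study holds 2 droplet-based single-cell RNA libraries, each from a single pool of ciliary epithelium dissected from wild-type, untreated C57BL/6 mice at postnatal day 35 and dissociated with collagenase. Library 1 pooled 3 sets of eyes, and for library 2 the labels give 3 sets in one field and 4 in another. There is 1 group, so no condition is compared and n = 2 libraries throughout. Animals were pooled, and nothing in the labels separates one animal from another.

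Tissue factor starts the extrinsic pathway of blood coagulation by binding factor VII, and tissue factor pathway inhibitor stops that step. Factor V, once activated, is the cofactor with which factor X turns prothrombin into thrombin, while thrombomodulin and the endothelial protein C receptor hand thrombin's activity over to the anticoagulant protein C. Plasminogen activators generate plasmin, which dissolves fibrin and cuts matrix and growth factors, and protease nexin 1 and alpha-2-macroglobulin restrain these proteases. In the eye the aqueous humour is secreted by the ciliary bilayer, whose inner non-pigmented layer faces the aqueous and whose outer pigmented layer faces the stroma, and it leaves through the trabecular meshwork and Schlemm's canal.

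The 2 libraries held 4764 and 6220 cell barcodes with 22510387 and 30683405 unique molecular identifiers (UMIs, each standing for 1 captured RNA molecule), of which 3865 and 5466 cells were kept, with medians of 4128 and 2968 UMIs. The libraries shared 11 barcodes, 8 of them among kept cells. Clusters were named from marker genes, and each class name below stands for cells that are like that type by its markers. The tissue was labelled ciliary epithelium, yet non-pigmented ciliary epithelium made up only 143 and 156 cells and pigmented ciliary or iris epithelium 134 and 218 cells, beside 380 and 1768 rods and many stromal, immune and retinal cells. In the non-pigmented class 7 of 8 markers were detected and Ecel1 was at 0, and in the retinal pigment epithelium 6 of 7 were detected, with Best1 at 0. In the pigmented ciliary or iris class all 7 markers were detected, but its 10 leading genes held 4 melanocyte markers (Dct, Pmel, Tyr and Mlana), against 3 of its own, which are shared with melanocytes, and the smooth muscle gene Myh11. It took its name because Krt8 and Krt18 counted in it and the melanocyte markers Kit and Sox10 did not. The 10 leading genes of the lymphatic or Schlemm class held 4 markers of blood endothelium, against 2 of its own, and it took its name because Prox1, Lyve1 and Flt4 counted. Comparisons with these classes are with those clusters as so named. A doublet caller marked 3 cells and 0 cells. Its threshold was not checked, so these counts do not show that doublets were absent, and doublets were kept. Fewer than 10 cells in either library excluded a class from the comparison of levels, which left 24 classes. Levels are UMIs of the gene per 1000000 UMIs (CPM) summed over a class in each library, and intervals are exact 95% Poisson intervals, which cover counting error only. A 3-prime count depends on the gene, so levels are compared between cell types and never between genes.

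The promoters of the genes that led in the secretory layer, the retinal pigment epithelium and the stroma show the stretch of genome around an annotated RefSeq start. RefSeq windows of 300 bases, running from 250 bases before to 50 bases after the annotated start on GRCm38.p6, were at hand for 5 of the 9 genes. Those shown are F5 at chr1:164151585-164151884 on the plus strand, F3 at chr3:121723287-121723586 on the plus strand and Serpine2 at chr1:79858616-79858915 on the minus strand, each printed 5′ to 3′ on its own strand. The windows of Tfpi and Procr are not shown. The Serpine2 window lies inside the gene span given below, which reaches 79861180, so its start is not the outermost one. Capitals mark every match on either strand, with overlaps allowed. The GC box was searched as GGGCGG, which is bound by Sp1-like factors. An element like that of AP-1 was searched as TGANTCA, with any base in the middle. The TATA motif was searched as TATAAA and marks some starts. An E box, CACGTG, and a homeobox motif known from photoreceptor genes, TAATCC, were searched as well and had no match in the windows shown.
F5: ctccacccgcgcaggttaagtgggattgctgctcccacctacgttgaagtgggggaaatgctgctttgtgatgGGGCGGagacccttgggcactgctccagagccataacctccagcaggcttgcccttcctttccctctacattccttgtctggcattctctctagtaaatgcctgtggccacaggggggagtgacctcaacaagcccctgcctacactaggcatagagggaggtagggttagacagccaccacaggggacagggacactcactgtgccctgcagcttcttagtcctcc
F3: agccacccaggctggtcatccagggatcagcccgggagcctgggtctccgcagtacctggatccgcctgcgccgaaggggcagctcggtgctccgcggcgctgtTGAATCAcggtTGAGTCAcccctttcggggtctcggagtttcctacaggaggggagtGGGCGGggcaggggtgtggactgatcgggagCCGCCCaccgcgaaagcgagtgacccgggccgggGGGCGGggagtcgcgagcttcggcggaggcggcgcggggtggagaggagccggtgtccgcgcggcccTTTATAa
Serpine2: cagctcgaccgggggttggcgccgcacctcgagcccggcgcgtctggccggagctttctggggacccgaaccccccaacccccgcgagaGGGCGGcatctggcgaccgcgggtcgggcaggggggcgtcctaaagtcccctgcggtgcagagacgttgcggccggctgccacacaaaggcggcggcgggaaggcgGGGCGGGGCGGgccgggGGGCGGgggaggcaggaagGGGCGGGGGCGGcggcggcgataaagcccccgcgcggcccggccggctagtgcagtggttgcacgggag
The F5 window had a GC content of 57.7% with 1 GC box, the F3 window 70.3% with 3 GC boxes, 1 TATA match after the start and 2 AP-1-like elements beginning 146 and 135 bases before the start, and the Serpine2 window 77.7% with 6 GC boxes. Over all 32851 RefSeq promoters, whose median GC content was 52.7%, the GC box was in 35.7% and the AP-1-like element in 7.81%. The TATA motif was in 13.6%, the E box in 7.15% and the homeobox motif in 7.06%. At least 6 GC boxes occurred in 1.35% of promoters and at least 2 AP-1-like elements in 0.46%. A match is only a run of letters, and no binding was measured.

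F5, the gene of coagulation factor V (ENSMUSG00000026579, chromosome 1, 164151838 to 164220277, GRCm38), was a gene of the non-pigmented ciliary epithelium. It stood at 196 CPM (interval 169 to 226, 187 UMIs) in library 1 and 189 CPM (163 to 217, 189 UMIs) in library 2, a mean of 192 ± 5.13 CPM (SD, n = 2). That class was 3.70% and 2.85% of the cells and held 88.6% and 85.1% of all F5 UMIs. Its level was 164-fold (107 to 262) and 162-fold (112 to 242) that of all other kept cells together. The adjoining pigmented layer had 1 UMI in each library, so the ratio between the layers, 165 and 260, has wide counting intervals of 29.3 to 6556 and 46.2 to 10338. Neutrophils were second in both libraries, with 1 UMI (12.9 CPM) and 5 UMIs (103 CPM), and the ratio of the non-pigmented layer to them was 15.1 (2.68 to 600.5) and 1.84 (0.774 to 5.73). Muller glia had 4 and 2 UMIs (9.79 and 1.92 CPM). The non-pigmented layer lay above every other class in both libraries, although in library 2 the Poisson interval of neutrophils, 33.3 to 239 CPM, covered its level, while the ranges of the classes from the third place on overlapped their neighbours.

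A UMI of F5 was seen in 40.6% (exact binomial interval 32.4 to 49.1%) and 34.0% (26.6 to 42.0%) of non-pigmented cells. In rods, taken to show what free RNA contributes, the share was 0% of 380 cells, which allows up to 0.789%, and 0.452% of 1768 cells, and no T or NK cell had one. Median depths were 3301 and 2478 UMIs in the non-pigmented layer and 1014 and 1244 in rods. After each cell was thinned to 1000 UMIs the shares were 18.0% and 17.6% in the non-pigmented layer, against 0% and 0.154% in rods.

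**Figure D1:**
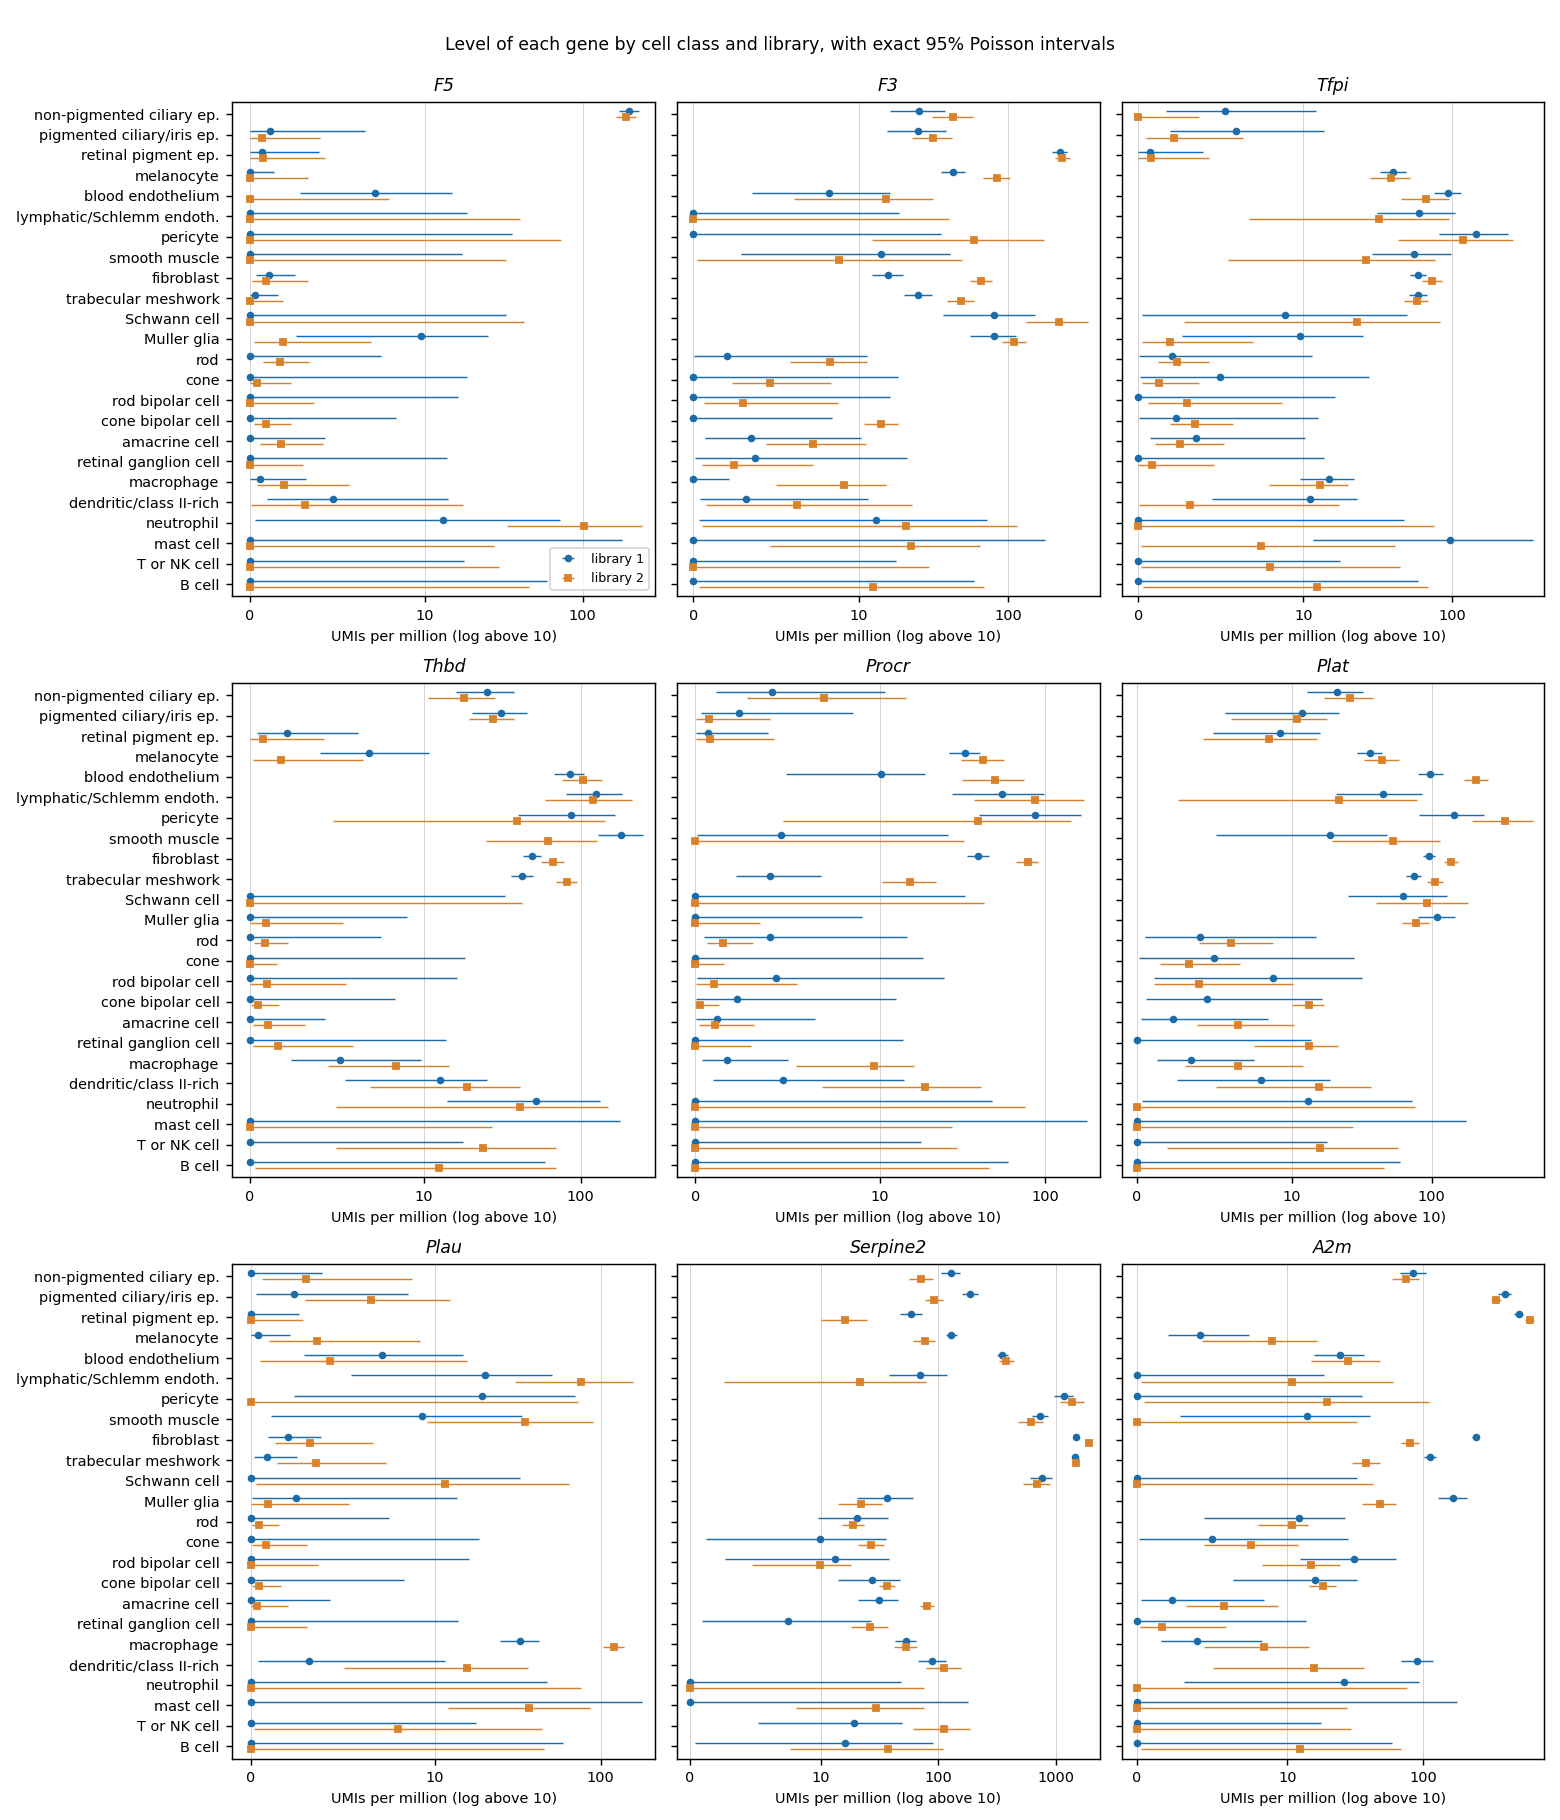
Level of each of the 9 genes (x axis, CPM, linear to 10 and logarithmic above) in 24 cell classes (y axis) of library 1 (circles) and library 2 (squares), with exact 95% Poisson intervals as bars. F5 is highest in the non-pigmented ciliary epithelium (196 and 189), with neutrophils next (12.9 and 103), F3 and A2m are highest in the retinal pigment epithelium, and Serpine2 exceeds 600 in 5 stromal, mural and Schwann classes.

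F3, whose protein starts coagulation (ENSMUSG00000028128, chromosome 3, 121723537 to 121735048), led in the retinal pigment epithelium at 221 CPM (197 to 247) and 231 CPM (205 to 258), 226 ± 7.00 CPM (SD, n = 2). Schwann cells followed with 80.0 and 219 CPM from 9 and 19 UMIs, then Muller glia with 80.8 and 109 CPM and melanocytes with 42.9 and 84.4 CPM. The retinal pigment epithelium did not overlap the next class, whereas the 3 that followed it overlapped each other. In library 2 the Poisson interval of Schwann cells, 132 to 342 CPM, covered that of the retinal pigment epithelium. It was 8.86-fold (5.70 to 14.5) and 7.41-fold (5.37 to 10.4) the pigmented ciliary or iris epithelium, where 21 and 43 UMIs gave 24.9 and 31.1 CPM. The non-pigmented layer had 25.1 and 42.9 CPM. F3 was thus low in both ciliary layers and high in the pigmented layer behind the retina. Its share of cells with a UMI in the retinal pigment epithelium was 57.5% and 52.9%, against 0.263% and 1.81% in rods, and 19.4% and 22.3%, against 0.508% and 0.845%, after thinning to 1000 UMIs. Blood endothelium had 8.18 and 15.1 CPM of F3.

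Tfpi, the inhibitor of the tissue factor pathway (ENSMUSG00000027082, chromosome 2, 84432855 to 84476775), was a gene of the vessel wall and stroma. Pericytes had 145 and 118 CPM from only 15 and 6 UMIs, blood endothelium 94.1 and 66.9 CPM, fibroblasts 58.9 and 73.5 CPM and trabecular meshwork 59.2 and 57.6 CPM. Pericytes did not overlap endothelium between libraries, but their Poisson intervals of 81.0 to 239 and 43.4 to 257 CPM did; the classes that followed overlapped. The blood endothelial class includes cells with fibroblast markers, described below, and their part in its Tfpi level was not tested. Melanocytes had 40.2 and 38.6 CPM. The ciliary layers had 5 and 0 UMIs (non-pigmented) and 5 and 3 UMIs (pigmented).

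Thbd, the thrombin receptor of endothelium (ENSMUSG00000074743, chromosome 2, 148404466 to 148408188), had 125 and 119 CPM in lymphatic or Schlemm endothelium (25 and 11 UMIs), 181 and 61.5 CPM in smooth muscle (39 and 7 UMIs) and 84.9 and 104 CPM in blood endothelium (83 and 48 UMIs). Smooth muscle overlapped both kinds of endothelium. The endothelial ranges did not meet, although their Poisson intervals did. Trabecular meshwork had 42.4 and 81.5 CPM and fibroblasts 48.9 and 66.1 CPM. In the ciliary bilayer Thbd was low, at 25.1 and 18.0 CPM in the non-pigmented and 30.8 and 27.5 CPM in the pigmented layer. Rods had 0 and 0.865 CPM. A pigmented sub-cluster led by Col3a1, Mgp, Col8a1 and Myoc, and by Dcn further down, held 515770 of 843346 and 983588 of 1381048 UMIs of that class. Its leading genes thus held fibroblast and trabecular meshwork markers, and their part in the Thbd level was not tested. A UMI was seen in 44.4% and 40.5% of blood endothelial cells, against 0% and 0.226% of rods, and in 7.34% and 7.35% after thinning.

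Procr, the receptor that presents protein C to thrombomodulin (ENSMUSG00000027611, chromosome 2, 155751117 to 155755471), was led by lymphatic or Schlemm endothelium at 55.0 and 86.5 CPM (11 and 8 UMIs), with pericytes at 86.9 and 39.4 CPM (9 and 2 UMIs), fibroblasts at 39.3 and 78.2 CPM (176 and 169 UMIs) and melanocytes at 32.7 and 42.2 CPM. These 4 overlapped in order. Blood endothelium, despite the gene's name, had 10.2 and 49.6 CPM, from 10 and 23 UMIs. Fibroblasts held 176 of 325 and 169 of 321 Procr UMIs.

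Plat, the tissue plasminogen activator (ENSMUSG00000031538, chromosome 8, 22757727 to 22782844), stood at 145 and 335 CPM in pericytes (15 and 17 UMIs), 98.2 and 209 CPM in blood endothelium, 95.8 and 138 CPM in fibroblasts, 110 and 77.7 CPM in Muller glia and 74.9 and 106 CPM in trabecular meshwork. All of these overlapped their neighbours, and Plat was spread over vessel wall, stroma and glia rather than held by 1 class. Blood endothelium had 2.18-fold (1.10 to 4.92) and 9.68-fold (2.61 to 81.0) the level of lymphatic or Schlemm endothelium, which had 9 and 2 UMIs. The non-pigmented layer had 20.9 and 25.9 CPM and the pigmented layer 11.9 and 10.9 CPM.

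Plau, the urokinase-type activator (ENSMUSG00000021822, chromosome 14, 20836660 to 20843385), was led by macrophages, at 32.8 CPM (24.8 to 42.5, 57 UMIs) in library 1 and 121 CPM (104 to 139, 186 UMIs) in library 2. Macrophages were 8.72% and 4.32% of cells and held 63.3% and 74.7% of Plau UMIs. Lymphatic or Schlemm endothelium was second in both libraries with 20.0 and 75.7 CPM, from 4 and 7 UMIs, and its range overlapped that of macrophages. Dendritic or class II-rich cells had 2 and 5 UMIs, and macrophages stood 10.3-fold (2.72 to 87.1) and 7.69-fold (3.24 to 24.0) above them. Plau was at 0 and 2.99 CPM in the non-pigmented layer and at 0 and 0.433 CPM in rods.

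Serpine2, which blocks thrombin, urokinase and plasmin at the cell surface (ENSMUSG00000026249, chromosome 1, 79794197 to 79861180), had 1493 and 1903 CPM in fibroblasts, 1442 and 1472 CPM in trabecular meshwork, 1168 and 1380 CPM in pericytes, 756 and 692 CPM in Schwann cells, 735 and 615 CPM in smooth muscle and 350 and 380 CPM in blood endothelium. The order of the first 6 classes was the same in both libraries, and only Schwann cells and smooth muscle overlapped. The lead of fibroblasts over trabecular meshwork depended on the processing and was reversed under several other settings, given at the end. Poisson intervals of fibroblasts and trabecular meshwork overlapped in library 1. A UMI was seen in 82.8% and 86.0% of trabecular meshwork cells, the class with the highest share, and in 71.3% and 83.2% of fibroblasts, against 2.11% and 3.79% of rods, and in 51.2% and 63.8% of fibroblasts, against 0.508% and 1.92% of rods, after thinning. The non-pigmented layer had 128 and 71.8 CPM, the pigmented layer 187 and 92.7 CPM and the retinal pigment epithelium 58.9 and 16.2 CPM.

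A2m, a broad protease trap (ENSMUSG00000030111, chromosome 6, 121635376 to 121679227), had its highest class levels in the pigmented epithelia. It stood at 506 CPM (470 to 545) and 609 CPM (567 to 653) in the retinal pigment epithelium and at 401 CPM (359 to 446) and 345 CPM (314 to 377) in the pigmented ciliary or iris epithelium, and the classes did not overlap. The ratio of retinal pigment epithelium to pigmented ciliary or iris epithelium was 1.26 (1.11 to 1.44) in library 1 and 1.77 (1.57 to 1.98) in library 2. The non-pigmented layer had 84.8 and 74.8 CPM, and the ratio of the pigmented over the non-pigmented layer was 4.73 (3.70 to 6.10) and 4.61 (3.60 to 5.96). Melanocytes, pigment cells of neural crest origin, had 4.18 and 8.98 CPM. Fibroblasts had 245 and 80.5 CPM and Muller glia 166 and 48.0 CPM, higher in library 1 in each case. In library 1 fibroblasts held 1096 of 2813 A2m UMIs, more than the 713 of the retinal pigment epithelium. In library 2 they held 174 of 1863, against 789. Its relatives Mug1 and Mug2 had no UMI and Pzp had 0 and 2 UMIs.

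**Figure D2:**
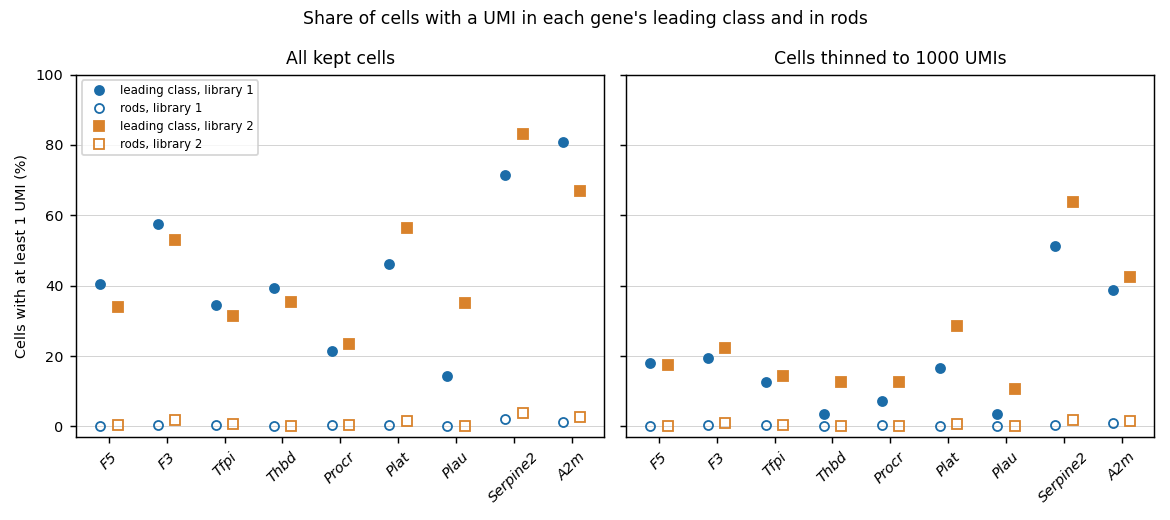
Percentage of cells with at least 1 UMI (y axis) of each gene (x axis) in its leading class (filled) and in rods (open), for library 1 (circles) and library 2 (squares), over all kept cells (left) and over cells thinned to 1000 UMIs (right). Rods stay under 4% for all 9 genes, and the F5 share in the non-pigmented layer falls to 18.0% and 17.6% once depth is fixed.

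Across the epithelial bilayer F5 and A2m thus ran in opposite directions. Their class levels entered a fit over 20 classes with library as block (edgeR), from which the fitted log2 difference of the non-pigmented minus the pigmented layer was 7.62 ± 0.68 (SE) for F5 and -2.18 ± 0.47 for A2m, given with no p since the genes were chosen for this pattern; the F5 value rests on 1 UMI in each pigmented sum. The other 7 genes had fitted differences between -1.48 (Plau) and 2.07 (Procr). The Procr value has an SE of 1.02 and rests on 4 and 7 UMIs in the non-pigmented layer, against 2 and 1 UMIs in the pigmented layer. Within the non-pigmented layer F5 varied. The sub-cluster led by Fbln2, Etv5 and Tmem132b (42 and 38 cells) had the highest F5, 294 and 292 CPM. The one led by Fbln2, Hhatl and Tyr had 171 and 179 CPM. The one led by photoreceptor genes such as Rcvrn, Pde6a and Nr2e3 (29 and 56 cells) had 84.1 and 95.4 CPM, with all 6 rod markers detected and summing to 3406 and 6477 CPM, against 120 and 972 CPM in the F5-rich sub-cluster. The part of these rod transcripts in the lower F5 value was not tested.

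A further sub-cluster of 11 and 9 non-pigmented cells, led by Slc4a4 and Tyr, had a median of 24474 UMIs, F5 at 113 and 97.6 CPM and A2m at 138 and 213 CPM. The other 3 sub-clusters had A2m between 9.82 and 61.4 CPM. All 7 markers of pigmented epithelium were detected in these cells and summed to 17138 and 15465 CPM, against 352 and 1215 CPM in the F5-rich sub-cluster. These cells thus carried genes of both layers at high depth, and whether they were doublets was not tested. Of the pigmented sub-clusters, the Myh11-rich one (40 and 18 cells), which also led in Acta2 and Tagln, genes of contractile cells, had less A2m, 121 and 88.9 CPM, than the first (445 and 399 CPM) and the second (500 and 368 CPM). The leading genes of the second held the fibroblast markers Col3a1 and Dcn and the meshwork markers Mgp and Myoc, and the part of such transcripts in its levels was not tested. In the retinal pigment epithelium F3 was even, from 160 to 239 CPM over 3 sub-clusters and both libraries.

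**Figure D3:**
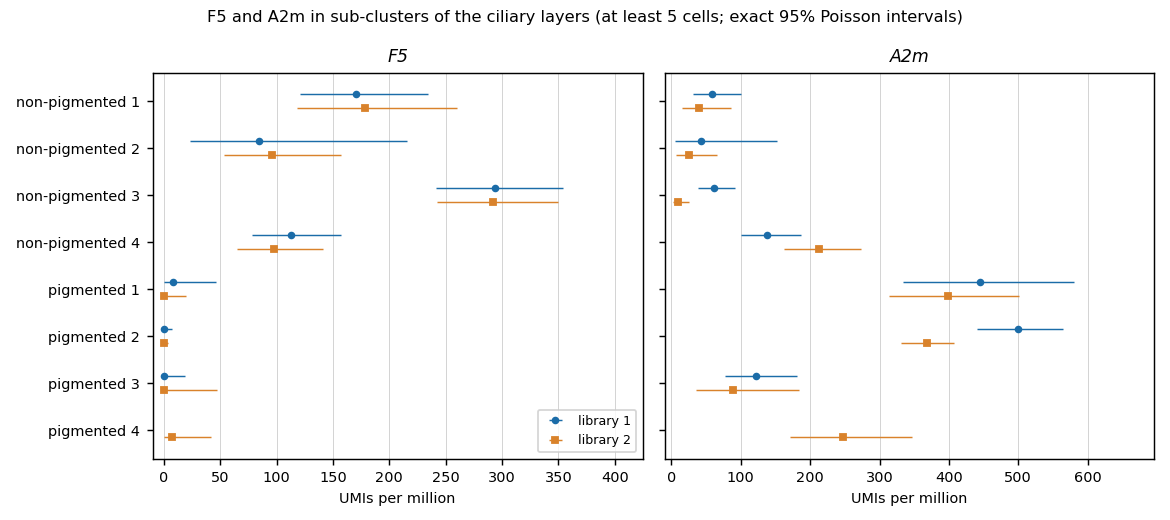
Level of F5 (left) and A2m (right) in CPM (x axis) in the sub-clusters of non-pigmented (upper 4) and pigmented (lower 4) ciliary epithelium for library 1 (circles) and library 2 (squares), with exact 95% Poisson intervals; values from fewer than 5 cells are left out. F5 peaks in non-pigmented sub-cluster 3 (294 and 292), and A2m is lowest among pigmented sub-clusters in the third, Myh11-rich one (121 and 88.9).

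The stromal and vascular classes were mixtures in which these genes did not move as a block. Serpine2 was 2626 and 1898 CPM in the fibroblast cluster led by Tagln, Edn3 and Lypd1, against 162 and 173 CPM in the cluster led by Mmp3 and Cyp2f2, a ratio of 15.4 (13.9 to 17.1) over both libraries. A2m ran the other way, at 499 and 170 CPM in the Mmp3 cluster, against 54.1 and 78.3 CPM in the Tagln cluster. The Mmp3 cluster, with 294 cells in library 1 and 62 in library 2, held 966 of 1096 fibroblast A2m UMIs in library 1 and 65 of 174 in library 2. Procr was 62.0 and 38.0 CPM in the Tagln cluster and 110 CPM in the Cxcl10- and Ccl7-rich fibroblasts, of which library 1 held 5 cells and library 2 held 168. In the trabecular meshwork Procr had 8.99 and 30.2 CPM in the Pi16-rich cluster and 2.35 and 7.69 CPM in the Tnmd-rich cluster. Thbd was 94.4 and 195 CPM in the Pi16-rich meshwork cluster, against 24.3 and 23.8 CPM in the Tnmd-rich cluster.

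In blood endothelium Plat was highest in the sub-cluster with the transporter genes Slco1a4 and Slco1c1, which are known from vessels with a blood-brain or blood-retina barrier, at 213 and 556 CPM from 20 and 56 UMIs. The pericyte markers, of which 2 of 6 were detected there in library 1 and 6 of 6 in library 2, summed to 21.3 and 2222 CPM in these cells, and their part in the Plat level was not tested. The Plvap-rich sub-cluster drawn mostly from library 1 (54 and 3 cells) had 37.8 CPM there, and the ratio in library 1 was 5.64 (2.52 to 13.5). Tfpi showed no such lead, at 21.3 and 9.92 CPM in the transporter-rich cells and 102 CPM in the Plvap-rich cells of library 1. A further sub-cluster (32 and 12 cells, median 14838 UMIs) held nearly all endothelial Serpine2, 337 and 159 of 342 and 176 UMIs. All 6 fibroblast markers were detected in it, summing to 4293 and 8878 CPM, against 74.5 to 368 CPM in the other blood endothelial sub-clusters. The pericyte markers Rgs5, Kcnj8, Abcc9, Notch3 and Higd1b counted in it too. Whether these cells were doublets was not tested. Nor was their part in the blood endothelial levels of Tfpi, Procr and Plat. In lymphatic or Schlemm endothelium Serpine2 was 70.0 and 21.6 CPM, while Procr and Thbd had their highest mean levels over the libraries there. In library 1 smooth muscle was higher for Thbd and pericytes for Procr. Both leads changed under other settings, given at the end.

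**Figure D4:**
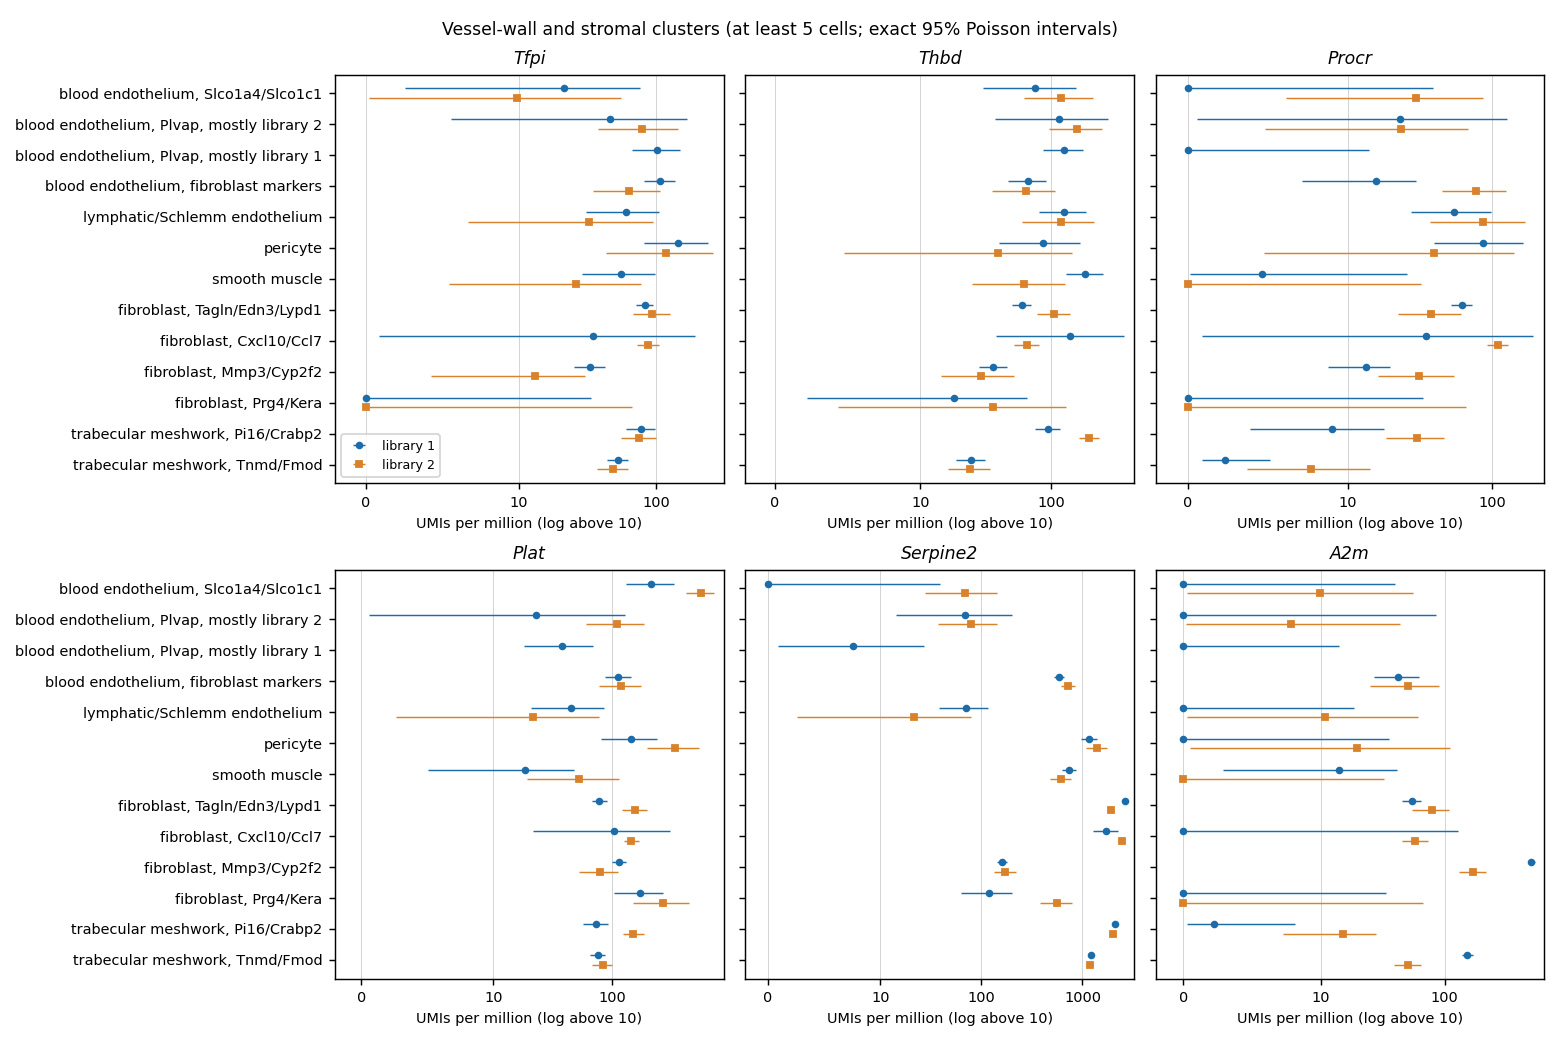
Level of 6 genes in CPM (x axis, linear to 10 and logarithmic above) in vessel-wall, fibroblast and trabecular meshwork clusters (y axis) for library 1 (circles) and library 2 (squares), with exact 95% Poisson intervals; values from fewer than 5 cells are left out. Plat is highest in transporter-rich endothelium (213 and 556), and Serpine2 and A2m exchange places between the Tagln and Mmp3 fibroblast clusters.

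Among macrophages Plau was uneven too. The sub-cluster with Osm, Cxcl1 and Vegfa, genes of activated cells, came from library 2 (65 cells, against 1 in library 1) and had 244 CPM, or 104 of the library's 186 macrophage UMIs. The remaining sub-clusters with at least 10 cells had between 0 and 46.1 CPM in library 1 and between 65.6 and 68.5 CPM in library 2. Plau was thus higher in library 2 outside the Osm-rich cells too, and the part of these cells in the difference between libraries was not tested.

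The libraries, which carry the same labels, differed in level for some of the genes. Of the classes with at least 10 UMIs over both libraries, F3 was higher in library 2 in all 14, Plau in all 5, Procr in 7 of 8 and Plat in 14 of 18. Serpine2 was higher in library 2 in 11 of 21 classes, A2m in 7 of 15, Thbd in 5 of 11 and Tfpi in 3 of 11. F5 had a single such class. Batch, pool and depth cannot be told apart with 1 library per pool. The mix of cells within a class differed as well. The Cxcl10- and Ccl7-rich fibroblasts were 5 cells in library 1 and 168 in library 2, and the Osm-rich macrophages 1 and 65. The part of this mix in the differences between libraries was not tested.

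For each gene the 3 genes with the most similar levels over the 20 fitted classes were found by Pearson's r of log2(CPM + 5). They were ranked by the lower r of the libraries among 8949 genes. The classes of a library share its depth, and r is a description. The fitted classes leave out pericytes and lymphatic or Schlemm endothelium, which had the highest mean levels of Tfpi, Plat, Thbd and Procr. F5 was most like Clec18a (r of 0.87 and 0.84), Lcn2 (0.76 and 0.79) and Crhbp (0.76 and 0.74). F3 was most like Acot1 (0.93 and 0.90), Cryab and Sema3b, and A2m most like Bdh2 (0.84 and 0.84), Pdpn and Slc16a9. Tfpi was most like Spsb1 (0.85 and 0.84), Nrp2 and Trim47, and Thbd like Colec12 (0.86 and 0.83), Hic1 and Dkk2. Procr had the weakest match, Inmt (0.81 and 0.84), Spp1 and Anpep. Plat was most like Gpr124 (0.92 and 0.91), Ctgf and Rftn2, Plau like Adap2 (0.90 and 0.87), Tnfrsf11a and F13a1 (0.79 and 0.77), and Serpine2 like Ednra (0.88 and 0.88), Nr4a2 and Sec24d.

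The question was then how the rest of the clotting and fibrinolysis system was placed. Their UMIs were counted over the 20 fitted classes only, which leave out small classes such as pericytes and lymphatic or Schlemm endothelium. Of the 48, 11 had no UMI there, among them plasminogen (Plg), protein C (Proc) and the fibrinogen chains Fga and Fgb. A further 18 had 1 to 49 UMIs over both libraries, among them prothrombin (F2, 10 and 13 UMIs) and factor X (F10, 8 and 12 UMIs). F13a1, the fibrin-crosslinking factor XIII subunit, was in macrophages at 273 and 231 CPM, which held 474 of 493 and 356 of 378 UMIs of these classes. Factor V leaves the cell with the help of the cargo receptor Lman1 and its partner Mcfd2. Lman1 was 237 and 262 CPM in the non-pigmented and 177 and 164 CPM in the pigmented layer (log2 difference 0.60 ± 0.26 SE, edgeR quasi-likelihood adjusted p = 0.224), and Mcfd2 71.2 and 54.9 CPM in the non-pigmented and 83.0 and 85.4 CPM in the pigmented layer (-0.38 ± 0.34, adjusted p = 0.692), so neither passed the test.

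In the fit, 17 of the 48 genes had enough counts to be tested among 7017 genes. Calls needed a log2 difference of at least 1 in either direction and p under 0.05 after the adjustment of Benjamini and Hochberg. Between the non-pigmented and the pigmented layer 1 of 17 was higher and 0 lower, where 3.83% and 2.18% of all genes tested were (6.01% in either direction). The count of 1 was 0 without the library block and with a mitochondrial limit of 15%. At an unadjusted p under 0.05, 1082 of all genes differed. The median over the 17 was 0.13, against -0.01 over all genes.

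In blood endothelium against the mean of all other fitted classes 7 of 17 were higher and 0 lower. Of all genes tested 15.3% and 1.3% were (16.6% in either direction). The median was 0.82, against 0.25 over all genes. Von Willebrand factor (Vwf), the adhesive protein that endothelium stores, was at 195 and 296 CPM in endothelium, against a mean of 1.85 and 1.96 CPM in the other classes (8.34 ± 0.31, edgeR adjusted p = 2.18e-19). Anxa2, an annexin that holds plasminogen and its activator at the cell surface, was higher by 1.82 ± 0.25 and Anxa5, an annexin that covers procoagulant phospholipid, by 1.15 ± 0.20 (edgeR adjusted p = 4.11e-07 and 2.39e-05). These are differences from a mean of logs: the plain mean CPM of Anxa5 in library 2 was 298 in endothelium and 334 over the other classes. The other 4 were F2r, Pros1, Plaur and Vkorc1, and the last of these missed the call without the endothelial cells that carry fibroblast markers (log2 difference 0.39, adjusted p = 0.61). The 9 chosen genes entered the same fit, where Tfpi, Thbd, Procr and Plat lay between 3.50 and 4.29. The part of the endothelial cells with fibroblast markers in these values was not tested. Pericytes and lymphatic or Schlemm endothelium, the classes with the highest mean levels of these genes, had too few cells for the fit and are not in that mean. The plain mean CPM of Procr was 10.2 and 49.6 in endothelium, against 5.60 and 9.29 over the other fitted classes. The values of F5, F3 and Plau rested on under 20 UMIs in endothelium.

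In fibroblasts against the mean of both ciliary layers 9 of 17 were higher and 0 lower, where 13% and 9.66% of all genes were (22.6% in either direction), and the median was 1.23, against 0.02 over all genes. Pros1, the cofactor of activated protein C, led the genes named by the rule, at 96.7 and 111 CPM in fibroblasts and 12.3 and 7.84 CPM in the layers (3.41 ± 0.36, edgeR adjusted p = 3.11e-09). Vkorc1, which recycles the vitamin K that clotting factors need, was higher by 1.67 ± 0.27, Anxa5 by 1.62 ± 0.25 and Anxa2 by 1.45 ± 0.31. Vwf, F2r, Plaur and Lrp1 were called too, and Vwf missed the call under 6 other settings. The Vwf call rested on 8 and 7 UMIs in fibroblasts (1.79 and 3.24 CPM), against 0 and 2 UMIs in the layers. That of Plaur rested on 8 and 28 UMIs, against 0 and 2. Lman1 stood at 134 and 107 CPM in fibroblasts and 207 and 213 CPM in the layers (-0.75 ± 0.22, edgeR adjusted p = 0.0092), short of the fold needed for a call. Among the chosen genes the fitted values, given with no test, were 4.42 ± 0.39 for Tfpi, 4.40 ± 0.49 for Procr, 3.90 ± 0.35 for Serpine2, 2.87 ± 0.28 for Plat and -3.57 ± 1.10 for F5.

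**Figure D5:**
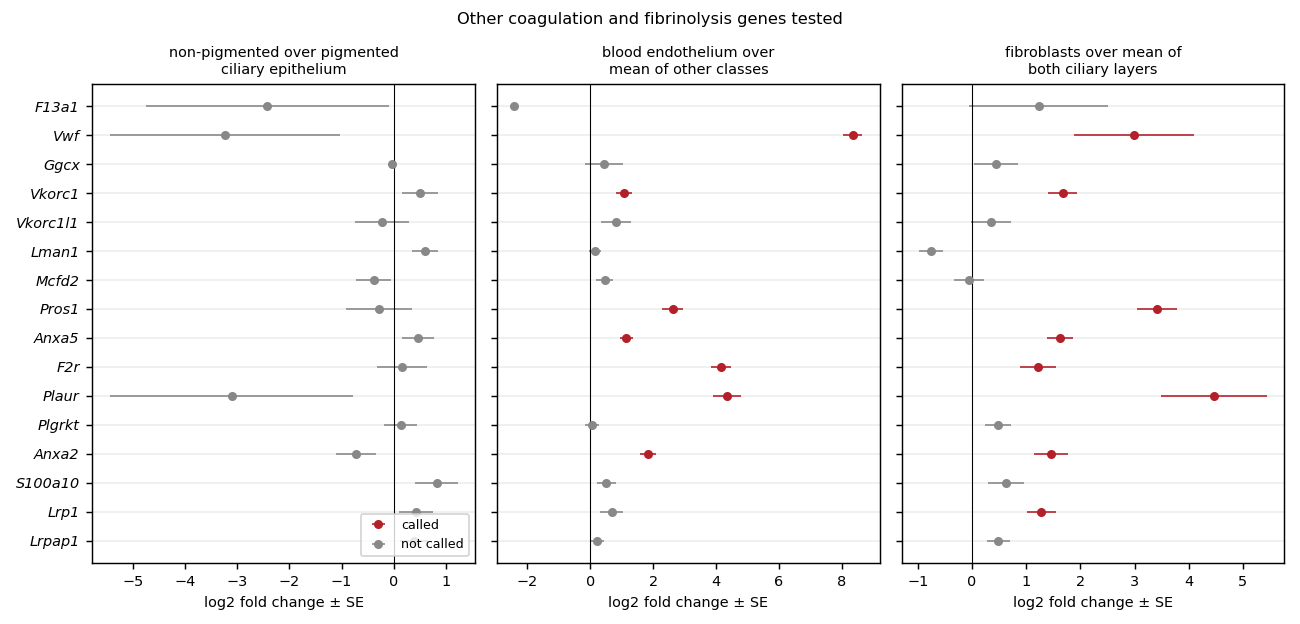
Fitted log2 fold change (x axis) with its standard error for 16 of the 17 tested genes of the wider list (y axis) in non-pigmented over pigmented ciliary epithelium (left), blood endothelium over the mean of the other classes (middle) and fibroblasts over the mean of both ciliary layers (right). Called genes are red and the others grey, and 2 values with no estimable error carry no bar (Ggcx in the layers and F13a1 in endothelium); of the genes drawn 0, 7 and 8 are called, all higher.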

How the data were processed

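The authors deposited a matrix of raw UMI counts (genes by barcodes) for each library, made with Cell Ranger 3.1.0 per the file headers; CASAVA 1.8, Cell Ranger and Seurat and the builds mm10 and GRCm38 are named in the submitters' processing notes, with no role given. A further deposited count matrix per library was identical (0 entries differed). The 9 genes and the wider list were chosen with earlier results of these data known.

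Barcodes under 500 genes or over 30% mitochondrial UMIs were dropped. The genes were split at random (seed 1) into 16746 for clustering, with all 204 markers, and 16710 held out. All 9 genes and the 48 of the wider list were held out, so that none of these shaped the classes. Some of the genes named as most alike, such as Crhbp, Lcn2 and Acot1, were in the clustering part. Both libraries were clustered together (scanpy 1.11.5, Python 3.11.15; 2000 variable genes, 30 components, 15 neighbours, Leiden resolution 1) into 28 clusters, 36 after 3 mixed clusters were split at resolution 0.5, and 25 classes were named; the 1 with under 10 cells in a library, erythrocytes, was left out of the levels. A marker counted at a mean of at least 0.5 per 10000 UMIs and 4 times the median of the other clusters, and 3 were needed. Between pigmented classes and between endothelial classes, set defining markers decided over the leading genes. The scoring rule came after the clusters were inspected. Sub-clusters within classes were described only.

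Counts summed per class and library for 20 classes, each of 20 cells or more per library (40 sums, 19 residual degrees of freedom) entered 1 edgeR 4.0.16 fit (R 4.3.3; TMM, filterByExpr, quasi-likelihood F test, Benjamini-Hochberg over 7017 held-out genes, common dispersion 0.043) with class and library as terms. The library block follows from the design: all classes of a library come from 1 pool. The other classes supply the residual spread, and p-values measure only the spread between these libraries, which may be technical. Named genes of the wider list were up to 4 per direction by size of change among called genes with 50 UMIs or more where they were higher, in each library, and the same direction in both. Counts were also simulated for the layers over 7017 genes. Genes were changed only upward in the non-pigmented layer, and only where they averaged at least 10 UMIs per layer sum. Recovery was 97% for genes changed 4-fold and 30% for genes changed 2-fold, and 10 of 137 called were unchanged ones. A 2-fold change lies at the threshold for a call, and recovery of genes with fewer UMIs was not simulated. Gene positions are from a GENCODE annotation of GRCm38. The values of 1 gene of the wider list, which stays in the counts, are not reported here.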

Additional observations from a re-analysis of the deposited data

How the results depend on the processing

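The comparisons of the wider list were repeated under 13 other settings, 3 of them chosen after seeing the data. Between the non-pigmented and the pigmented layer the number called higher was 0, against the 1 reported, with no replicate block and with a mitochondrial limit of 15%, and the number called lower was 1, against the 0 reported, with that limit and without the 5% deepest cells, where it was Anxa2 (log2 difference -1.85 and -1.35). In blood endothelium 6 to 9 genes were called higher and in fibroblasts 7 to 10, and none lower, under the settings tried, and the block changed none of these counts by over 1.5 times. No call of the wider list changed direction. Leaving out a library leaves no residual degrees of freedom, so it was run for levels only. The number of the 9 genes that kept their leading class was 6 to 9 over 11 settings, and 7 to 9 when either library was left out. Those that changed it were Thbd, Procr and Serpine2. Thbd went to smooth muscle at clustering resolution 2, with a second split of genes and in library 1 alone. It went to blood endothelium without the 5% deepest cells and without the endothelial cells with fibroblast markers. With the 15% limit and with no minimum of detected genes Thbd went to trabecular meshwork. That class then had 132 and 125 CPM, against 61.9 CPM as reported. Serpine2 went to trabecular meshwork, at 2047 CPM with the 15% limit, 2105 with no minimum of detected genes and 1945 at clustering resolution 2. It also did so with a second split of genes (2016), without the 5% deepest cells (1959) and without clusters mostly of 1 library (1457). Procr went to fibroblasts or pericytes. Of the levels in the leading class, 17 of those recomputed moved by more than the SD between libraries. F5 stayed between 182 and 222 CPM in the non-pigmented layer and F3 between 212 and 240 CPM in the retinal pigment epithelium. Depth limits the small classes: pericytes and lymphatic or Schlemm endothelium rest on 2 to 25 UMIs for Tfpi, Thbd, Procr and Plat.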
